A study of Mus musculus with 18 samples.

Results

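The 10 genes described here encode amino acid transporters of the plasma membrane: Slc1a5, Slc7a5, Slc3a2, Slc7a8, Slc38a1, Slc38a2, Slc6a14, Slc7a1, Slc43a2 and Slc16a10. They were chosen by symbol from the 45777 genes of the count table, all 10 were found, and all 10 were among the 18848 genes with enough counts to be tested. Their mRNA was measured by RNA-seq in colon tissue of male C57BL/6J mice aged 8 weeks that were bred germ-free, that is, without microbes. The genotypes were wild type (WT), Lao1-/- (LAO1KO) and Lao1-/- Il4i1-/- (DKO). By label, the DKO mice carry the deletion of the LAO1KO mice and a second one. Mice of each genotype drank either regular sterile water or 2.5% dextran sulfate sodium (DSS), a polymer that injures the colon lining, for 24 hours. The labels describe 3 biological replicates (A, B and C) in each of the 6 groups, which gives 18 libraries. How the deletions were made and whether the mice were littermates is not given in the sources used here.

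Amino acids cross the plasma membrane by uptake carriers driven by sodium, by exchangers that swap one amino acid for another, and by facilitative carriers that let them leave the cell. Slc1a5 (ASCT2) exchanges glutamine and other small neutral amino acids, Slc38a1 and Slc38a2 take up glutamine and alanine with sodium, and Slc3a2 (CD98) is the heavy chain that brings light chains such as Slc7a5 (LAT1) and Slc7a8 (LAT2) to the cell surface. Slc6a14 takes up neutral and cationic amino acids with sodium and chloride, Slc7a1 carries arginine and lysine, and Slc43a2 and Slc16a10 let branched-chain and aromatic amino acids pass down their gradients. The products of Lao1 and Il4i1 oxidise L-amino acids and release hydrogen peroxide.

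The libraries held 26003174 to 36553193 counts. Lao1, the first targeted gene, had 0 to 10 counts in any library, with 6 counts in all over the WT libraries against 31 over LAO1KO and 32 over DKO, so its counts do not check the Lao1 label. Il4i1 together with its copy Il4i1b had 252 counts over the 6 WT libraries, 241 over LAO1KO and 12 over DKO, where 5 of 6 libraries had 0. All 12 were counts of Il4i1b in the library labelled DKO B under DSS, as many as in the lowest LAO1KO library, so the Il4i1 counts of this library do not bear out its label. Without it, the log2 fold change of Slc1a5 in DKO under DSS was -1.66 against WT (edgeR adjusted p = 0.00328) and -1.83 against LAO1KO (adjusted p = 0.00162). The share of counts from mitochondrially encoded mRNAs was 6.89 to 9.08% in WT under water and 26.1 to 44.9% in WT under DSS. It was 8.67 to 14.4% and 15.7 to 23.2% in LAO1KO, and 10.5 to 20.7% and 14.3 to 23.6% in DKO. Summed levels of the epithelial markers were 10071 to 25207 CPM (counts per 1000000, scaled by TMM factors), while those of the T cell markers were 1.91 to 12.5 CPM. In whole tissue, fewer cells of a type and less RNA per cell cannot be told apart.

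RefSeq promoter windows of GRCm38.p6 were at hand for 7 of the 10 genes, in 9 windows, and not for Slc1a5, Slc7a5 and Slc38a1. The 250 bases before the start are shown for the 2 genes whose level was lower under DSS on average over the genotypes, Slc7a1 (chr5:148399905-148400154, minus strand, the upstream of its 2 starts) and Slc6a14 (chrX:21714650-21714899, plus strand). Capitals mark GGGCGG, the core of the GC box, on either strand.
Slc7a1: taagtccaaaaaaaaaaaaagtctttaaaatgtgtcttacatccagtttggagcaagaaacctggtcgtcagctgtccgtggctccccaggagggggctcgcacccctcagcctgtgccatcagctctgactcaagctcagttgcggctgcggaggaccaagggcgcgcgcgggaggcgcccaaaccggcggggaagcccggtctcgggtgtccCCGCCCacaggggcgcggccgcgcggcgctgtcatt
Slc6a14: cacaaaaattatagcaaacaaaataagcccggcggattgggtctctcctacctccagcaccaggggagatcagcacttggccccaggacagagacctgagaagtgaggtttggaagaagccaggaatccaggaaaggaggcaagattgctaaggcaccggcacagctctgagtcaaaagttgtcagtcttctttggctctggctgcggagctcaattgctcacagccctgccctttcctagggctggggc
The Slc7a1 window held 21 CpG pairs and 1 GC box, at 62.4% GC. The Slc6a14 window held 4 CpG pairs and no GC box, at 54% GC. GGGCGG was found in 7 of the 9 member windows and in 32.7% of all 32851 windows of this length. The TATA box TATAAA was found in 1, the window at the downstream start of Slc7a1, and in 12.4% of all. On 300-base windows, 3 motifs searched on both strands were found in none of the 9: TGATGNAA, bound by ATF4, which is in 3.97% of all windows, CACGTG, the E-box, in 7.15%, and TTANGTAA, a D-box core, in 2.32%. These matches describe letters and not binding.

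Slc1a5 mRNA was about 3-fold lower in DKO colon than in WT or LAO1KO colon, in both drinking conditions. In the WT libraries A, B and C its level was 241, 174 and 250.2 CPM under water and 240.2, 245 and 212 CPM under DSS. In LAO1KO it was 160.0, 270.4 and 241 CPM under water and 283, 253 and 242 CPM under DSS. In DKO it was 64.0, 87.5 and 68.5 CPM under water and 72.6, 62.7 and 73.9 CPM under DSS. The highest DKO library lay below the lowest library of the other genotypes, so the groups did not overlap. Over both treatments the 6 DKO libraries had a mean of 71.5 ± 9.01 CPM (SD, n = 6), against 227 ± 29.0 CPM over the 6 WT libraries and 242 ± 43.2 CPM over the 6 LAO1KO libraries. Ordered by group mean, LAO1KO under DSS (259 CPM), WT under DSS (232 CPM), LAO1KO under water (224 CPM) and WT under water (222 CPM) each overlapped the next. The DKO groups under water (73.3 CPM) and DSS (69.7 CPM) followed without overlap and overlapped each other.

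**Figure D1:**
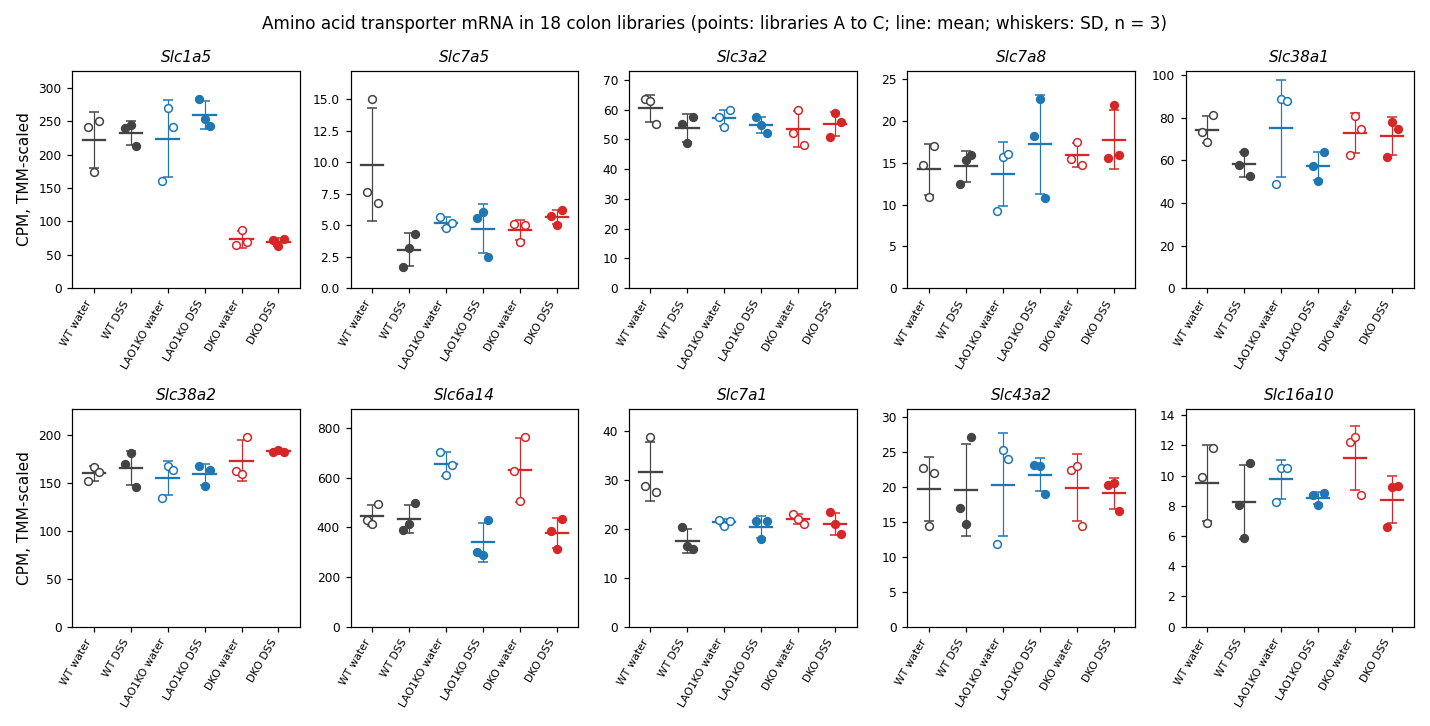
Level of each of the 10 transporters in every library, in CPM scaled by TMM factors (vertical axis, linear, from 0), for the 6 groups (horizontal axis); points are libraries, lines group means and whiskers SD (n = 3). Slc1a5 lies between 62.7 and 87.5 CPM in the 6 DKO libraries and between 160.0 and 283 CPM in the other 12.

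Against WT, the log2 fold change of Slc1a5 in DKO was -1.60 ± 0.19 (SE) under water (edgeR quasi-likelihood test, Benjamini-Hochberg adjusted over all genes, adjusted p = 2.58e-04) and -1.74 ± 0.19 under DSS (adjusted p = 8.24e-05). Averaged over the treatments it was -1.67 ± 0.13 (adjusted p = 7.48e-07), a 3.18-fold lower level. Slc1a5 was the 1 member of 10 past the threshold of 0.05 in each of these comparisons, in which 0.621% of all tested genes passed under water (0.249% lower), 0.255% under DSS (0.143% lower) and 0.562% on average (0.255% lower). The other 9 members had a median log2 fold change of 0.13 on average over the treatments, beside -0.0010 for all genes tested.

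Against LAO1KO, the genotype that shares the Lao1 deletion, the log2 fold change of Slc1a5 in DKO was -1.61 ± 0.19 under water (adjusted p = 3.75e-04), -1.90 ± 0.19 under DSS (adjusted p = 4.80e-05) and -1.75 ± 0.13 averaged over both (adjusted p = 7.04e-07). Again Slc1a5 was the 1 member of 10 that passed, beside 0.0796, 0.0637 and 0.239% of all tested genes, or 0.0318, 0.0424 and 0.122% called lower. With only the 2 groups compared in the fit, the change under water was -1.62 with an adjusted p of 0.176. The comparisons with WT and with LAO1KO share the DKO libraries.

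LAO1KO itself had a log2 fold change of 0.09 ± 0.13 in Slc1a5 against WT (averaged over the treatments, edgeR adjusted p = 0.998). By edgeR, 0 of the 10 members passed in LAO1KO against WT under water, under DSS or averaged, beside 0.0531, 0.0849 and 0.133% of all tested genes. At an unadjusted p under 0.05 there were 3, 0 and 0 members, DESeq2 called 1, 0 and 0, and limma voom called 1, 1 and 0. DSS was followed by a Slc1a5 log2 fold change of 0.07 ± 0.18 in WT (adjusted p = 0.845), 0.21 ± 0.18 in LAO1KO (adjusted p = 0.593) and -0.07 ± 0.18 in DKO (adjusted p = 0.938). The DSS response of Slc1a5 differed between DKO and WT by -0.14 ± 0.26 on the log2 scale (adjusted p = 0.833).

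Markers of cell types were examined beside Slc1a5. Of the 109 marker genes of 16 tissues and cell types, 103 were tested, and in DKO against WT edgeR called 0 of them under water, under DSS and averaged, where 0.621, 0.255 and 0.562% of all genes passed. At an unadjusted p under 0.05 there were 27, 7 and 13, DESeq2 called 8, 1 and 1, and limma voom 0, 2 and 2. The percentages of all genes belong to the edgeR calls only, so these further counts have no background beside them. The median log2 fold change of the markers was -0.33 under water and -0.10 under DSS. The summed goblet cell markers were 7039 to 8219 CPM in DKO under water, below the 10257 to 12791 CPM of WT under water, and 11494 to 13683 CPM in DKO under DSS, within the 9375 to 13518 CPM of WT under DSS apart from 1 higher library. The part of these markers in the lower Slc1a5 of DKO was not tested. The summed epithelial markers ranged from 11846 to 18255 CPM in DKO and from 12575 to 21729 CPM in WT.

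Slc1a5 is annotated at chr7:16781340-16798274 on the plus strand of GRCm38, on the chromosome that also carries Il4i1, 28018113 bases away. Among the 23 tested genes within 500 kb, 3 passed in DKO against WT averaged over the treatments, beside 0.562% of all tested genes. Their median log2 fold change was 0.07, and 7 of the 23 had an unadjusted p under 0.05. The same 3 passed in DKO against LAO1KO, beside 0.239% of all tested genes. Ap2s1, which encodes a subunit of the AP-2 clathrin adaptor, had a log2 fold change of -0.23 ± 0.12 (adjusted p = 0.485) and did not pass. The 3 that passed were the lincRNA 9330104G04Rik (-2.38 ± 0.46, adjusted p = 0.0171), Pnmal2 (1.45 ± 0.17, adjusted p = 1.37e-04) and the phosphatase gene Ppp5c (0.44 ± 0.09, adjusted p = 0.0254). Slc1a5 was thus lower between neighbours of which some were lower, some higher and most not past the threshold.

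Over the whole of chromosome 7, 49 of 1338 tested genes passed (3.66%), 24 lower and 25 higher, out of 95 called among the 17228 tested genes with a position. The DKO mice differ from the other groups both in the Il4i1 deletion and in whatever else of this chromosome they carry, and for Slc1a5 these cannot be told apart here.

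**Figure D2:**
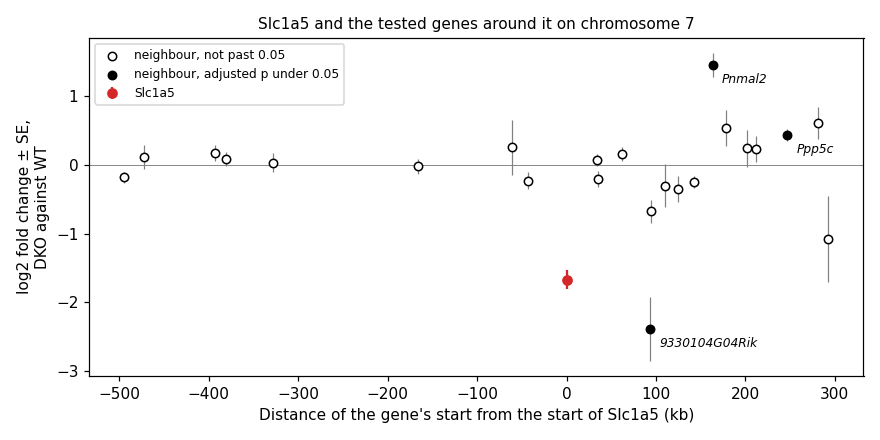
Log2 fold change ± SE in DKO against WT averaged over the treatments (vertical axis) for Slc1a5 and the tested genes around it, by distance of their start from that of Slc1a5 in kb (horizontal axis). Slc1a5 stands at -1.67, the 3 filled black points are the neighbours with an adjusted p under 0.05, and the open points are the others.

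The genes most like Slc1a5 over the libraries also lay on chromosome 7. Among 9508 genes with a mean of at least 10 CPM, the 5 highest Pearson correlations of log2 CPM with Slc1a5 over the 18 libraries were those of Ccdc61 (0.953), Nlrp9b (0.849), Tbc1d17 (0.823), Isg20 (0.815) and Ceacam20 (0.805). All 5 were lower in DKO than in WT, with log2 fold changes of -0.94 to -1.21. Tbc1d17 lies beside Il4i1. These points share the split between DKO and the other genotypes. After centring on the group means, the 5 genes were Hgfac (0.898), Iqce (0.895), Trim44 (0.890), Pskh1 (0.889) and Slc25a42 (0.889), none of them on chromosome 7. Both rankings are descriptions.

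The sodium-coupled glutamine carriers Slc38a1 and Slc38a2 did not pass in DKO against WT. Slc38a2 ranged from 134 to 197 CPM over the 18 libraries, a 1.47-fold span, and its log2 fold change in DKO against WT averaged over the treatments was 0.13 ± 0.09 (adjusted p = 0.549). That of Slc38a1 was 0.13 ± 0.13 (adjusted p = 0.680). Slc38a1 was 73.5, 68.6 and 81.3 CPM in WT under water and 58.0, 64.1 and 52.5 CPM under DSS. In LAO1KO it was 48.8, 88.7 and 87.9 CPM under water and 57.5, 50.5 and 64.0 CPM under DSS. The WT groups did not overlap, whereas LAO1KO library A under water was the lowest of all 18 and lay below the LAO1KO libraries under DSS. In DKO Slc38a1 was 62.4, 80.9 and 74.9 CPM under water and 61.4, 78.04 and 74.7 CPM under DSS, which overlapped closely.

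The DSS change of Slc38a1 averaged over the genotypes was -0.26 ± 0.11 (log2, adjusted p = 0.104). Without LAO1KO library A under water it was -0.35 with an adjusted p of 0.00548, and limma voom, which weights libraries, gave -0.30 (adjusted p = 0.00321). Limma voom also called Slc38a1 for DSS in LAO1KO (-0.58, adjusted p = 0.000718) and in DKO against LAO1KO under DSS (0.36, adjusted p = 0.0140). In LAO1KO library A under water Slc1a5, Slc38a2, Slc7a8, Slc43a2 and Slc16a10 were also at the lowest level of their group. They stood at 160.0, 134, 9.25, 11.8 and 8.23 CPM, while Slc7a5, Slc6a14 and Slc7a1 were at the highest level of theirs. That library had the highest summed epithelial and absorptive colonocyte markers of the 18 libraries, 25207 and 21761 CPM, and their part in these levels was not tested.

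The share of Slc1a5 in the summed mRNA of Slc1a5, Slc38a1 and Slc38a2, per kilobase of exon, was smaller in DKO than in WT and LAO1KO. The Slc1a5 share was 65.7 ± 4.99% in WT under water, 67.3 ± 0.804% in WT under DSS, 66.4 ± 2.75% in LAO1KO under water and 70.4 ± 1.92% in LAO1KO under DSS (SD, n = 3 libraries). In DKO it was 37.7 ± 5.02% under water and 35.5 ± 2.44% under DSS. Its size depends on the correction for length: from raw counts it was 48.4 ± 5.04% for WT under water and 51.0 ± 0.910% under DSS, 49.0 ± 2.36% and 54.5 ± 2.51% for LAO1KO, and 23.0 ± 3.40% and 21.6 ± 1.97% for DKO. The highest DKO library, at 43.2%, lay below the lowest of the others, at 59.985%.

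Within treatments the Slc1a5 share in DKO minus that in WT was -29.97 percentage points on average (2-sided exact permutation test, p = 0.005, the smallest the design allows, 0.0375 adjusted over the 15 tests of such ratios). Against LAO1KO the difference was -31.9 points (exact p = 0.005, adjusted 0.0375). LAO1KO and WT differed by 1.88 points (exact p = 0.315, adjusted 0.825). Since the numerator is Slc1a5, this share restates its lower level inside each library, free of the scaling between libraries.

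**Figure D3:**
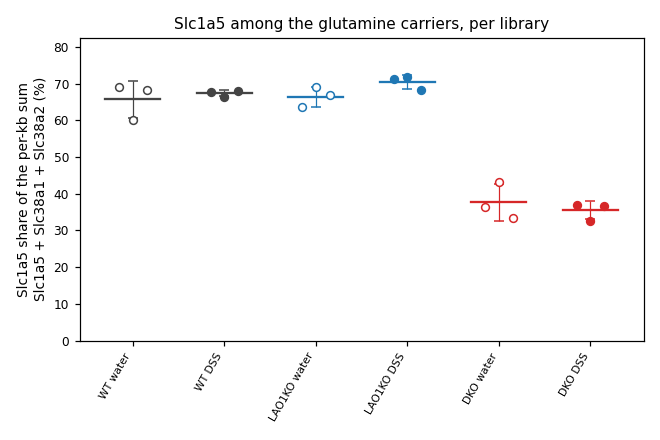
Slc1a5 as a percentage of the summed CPM per kilobase of Slc1a5, Slc38a1 and Slc38a2 (vertical axis, from 0) in each library of the 6 groups (horizontal axis); points are libraries, lines means and whiskers SD (n = 3). The DKO libraries lie at or below 43.2% and all others at or above 59.985%.

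Slc3a2, the heavy chain, was the steadiest of the 10, between 48.0 and 63.5 CPM over the 18 libraries (a 1.32-fold span), and passed in none of the 16 comparisons by edgeR, DESeq2 or limma voom. Its light chain Slc7a5, the carrier of large neutral amino acids, was lower under DSS in WT. Slc7a5 was 7.66, 15.01 and 6.79 CPM in WT under water and 1.69, 3.17 and 4.29 CPM under DSS. The lowest water library lay above the highest DSS library, and library B under water was the highest of all 18.

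The Slc7a5 change in WT was -1.70 ± 0.36 (log2, edgeR adjusted p = 0.00830). Without WT library B under water it was -1.26, with an adjusted p of 0.05002 that just missed the threshold, and with only the 2 WT groups in the fit -1.71 with 0.0523. That library also had the highest summed fibroblast (1200.9 CPM), smooth muscle (9263 CPM), crypt and cycling cell (446.8 CPM) and plasma cell (259.6 CPM) markers of the 18 libraries. Its summed pancreas markers (86.7 CPM) were the highest as well, but came from Cela1 alone. The other pancreas markers, Prss2, Cpa1, Pnlip and Amy2a5, had 0 counts in WT under water. The part of all these markers in the level of Slc7a5 was not tested. The 44 to 471 counts of Slc7a5 per library were the fewest of the 10 members at the low end.

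Within each knockout Slc7a5 did not pass for DSS against water. It was 5.65, 4.78 and 5.20 CPM in LAO1KO under water and 5.60, 6.06 and 2.49 CPM under DSS. In DKO it was 5.14, 3.68 and 4.99 CPM under water and 5.72, 5.05 and 6.18 CPM under DSS. The log2 fold changes under DSS were -0.14 ± 0.35 in LAO1KO (adjusted p = 0.873) and 0.30 ± 0.35 in DKO (adjusted p = 0.834). The difference of the DSS response from that of WT was 1.56 ± 0.50 in LAO1KO (adjusted p = 0.170) and 1.996 ± 0.50 in DKO (adjusted p = 0.115), so a genotype dependence of the Slc7a5 response was not shown by edgeR. Limma voom called the LAO1KO difference (1.76, adjusted p = 0.0132) and DESeq2 did not. DESeq2 put the DKO difference at 2.03 (adjusted p = 0.00979) and limma voom at 2.08 (adjusted p = 0.0355). Against WT under water, Slc7a5 had a log2 fold change of -0.91 ± 0.35 in LAO1KO (edgeR adjusted p = 0.262). In DKO it was -1.09 ± 0.35 (edgeR adjusted p = 0.141), which DESeq2 called (-1.12, adjusted p = 0.0414). Under DSS the change against WT was 0.65 ± 0.36 in LAO1KO and 0.90 ± 0.36 in DKO (edgeR adjusted p = 0.823 and 0.468). Limma voom called both (1.11 and 1.24, adjusted p = 0.0482 for each).

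Slc7a8, the other light chain among the members, ranged from 9.25 to 22.6 CPM and passed in none of the 16 comparisons by edgeR, DESeq2 or limma voom. Per kilobase, Slc7a7, which exports cationic amino acids in exchange for neutral ones, was the most abundant of 6 light chains that pair with Slc3a2, with a median of 13.5 CPM per kb. Slc7a8 had 3.82, Slc7a6 3.33, Slc7a5 1.47, Slc7a10 0.464 and the cystine carrier Slc7a11 0.0813 CPM per kb. Slc7a5 was 10.8 ± 5.37% of their sum in WT under water and 4.14 ± 2.02% in WT under DSS (SD, n = 3; exact permutation test, p = 0.1, the smallest that 3 against 3 can give, 0.403 adjusted over the 15 ratio tests). The ratio of Slc3a2 to the summed light chains had group means of 0.763 to 0.900, and its 5 tests gave adjusted exact p-values of 0.825.

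Slc7a1, the arginine and lysine carrier, was highest in WT under water. It was 28.7, 38.6 and 27.5 CPM there and 20.3, 16.4 and 15.8 CPM in WT under DSS. Every WT library under water was above all libraries of the other 5 groups, which ranged from 15.8 to 23.3 CPM. In LAO1KO it was 21.8, 20.5 and 21.6 CPM under water and 21.5, 17.8 and 21.6 CPM under DSS. In DKO it was 22.9, 21.9 and 20.9 CPM under water and 23.3, 20.9 and 18.8 CPM under DSS. The knockout groups overlapped with one another in both conditions.

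Slc7a1 fell under DSS in WT, by 0.85 ± 0.14 on the log2 scale (adjusted p = 0.00265), a call that held in each of the 27 other settings tried. Averaged over the genotypes its log2 fold change was -0.33 ± 0.08 (adjusted p = 0.0145). In LAO1KO the change was -0.07 ± 0.14 (adjusted p = 0.845) and in DKO -0.06 ± 0.14 (adjusted p = 0.935). The differences from the WT response were 0.78 ± 0.20 in LAO1KO (adjusted p = 0.136) and 0.79 ± 0.20 in DKO (adjusted p = 0.119), which edgeR did not call. DESeq2 gave 0.79 (adjusted p = 0.0188) and 0.82 (adjusted p = 0.0135), and limma voom called the LAO1KO difference only (0.70, adjusted p = 0.0132). Under water, Slc7a1 in DKO against WT had a log2 fold change of -0.53 ± 0.14 (adjusted p = 0.0947), which became -0.62 with an adjusted p of 0.0444 without WT library C under water. DESeq2 called this DKO change at -0.56 (adjusted p = 0.0120). In LAO1KO against WT under water Slc7a1 was at -0.57 ± 0.14 (edgeR adjusted p = 0.173). DESeq2 called that change (-0.57, adjusted p = 0.0170), as did limma voom (-0.47, adjusted p = 0.0287).

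Slc6a14, the broad sodium- and chloride-driven carrier, was the most abundant of the 10 per kilobase and fell under DSS on average over the genotypes. In WT it was 430.5, 415 and 494 CPM under water and 390.4, 415 and 499 CPM under DSS. In LAO1KO it was 705, 611 and 650.5 CPM under water and 300.3, 289 and 429 CPM under DSS. In DKO it was 626, 505 and 763 CPM under water and 387, 314 and 434 CPM under DSS. Within each knockout, water and DSS libraries did not overlap, while in WT they did. Under water, all 6 knockout libraries lay above the 3 WT libraries.

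The log2 fold change of Slc6a14 under DSS was -0.58 ± 0.11 averaged over the genotypes (adjusted p = 0.00223). By genotype, the change in WT was -0.04 ± 0.18 (adjusted p = 0.911), and it was -0.95 ± 0.18 in LAO1KO (adjusted p = 0.0427) and -0.74 ± 0.18 in DKO (adjusted p = 0.186). The differences from the WT response were -0.91 ± 0.26 in LAO1KO (adjusted p = 0.146) and -0.70 ± 0.26 in DKO (adjusted p = 0.218), so a dependence on genotype was not shown by edgeR. DESeq2 called the LAO1KO difference (-0.90, adjusted p = 0.0303), as did limma voom (-0.98, adjusted p = 0.0125), and neither called that of DKO. Against WT under water, Slc6a14 was 0.55 ± 0.18 higher on the log2 scale in LAO1KO (adjusted p = 0.223) and 0.50 ± 0.18 in DKO (adjusted p = 0.181), which did not pass.

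The Slc6a14 call in LAO1KO was close to the threshold by edgeR. DESeq2 called the same change at -0.96 (adjusted p = 6.26e-05) and limma voom at -1.06 (adjusted p = 1.12e-04). It passed in 10 of 18 edgeR fits with 1 library left out, and in 8 of 9 other settings. The edgeR call was lost without LAO1KO library B or C under water (adjusted p = 0.0760 and 0.112) or LAO1KO library A or B under DSS (0.249 and 0.169), with log2 fold changes of -0.87 to -0.9995. It was also lost without WT library A under water (0.0553), DKO library A under water (0.0565), or DKO library A or C under DSS (0.0576 and 0.0650). Absorptive colonocyte markers stood at 13309 to 21761 CPM in LAO1KO under water and 11567 to 14974 CPM under DSS. There 1 of 9 was called lower, beside 0.191% of all genes. In WT their sums were 13512 to 14784 CPM under water and 13768 to 21615 CPM under DSS. In DKO they were 14386 to 19163 CPM under water and 11194 to 13171 CPM under DSS. Their part in the level of Slc6a14 was not tested.

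The facilitative carriers Slc43a2 (LAT4) and Slc16a10 (TAT1) passed in none of the 16 comparisons by edgeR. Slc43a2 ranged from 11.8 to 27.0 CPM and Slc16a10 from 5.86 to 12.5 CPM over the 18 libraries. Slc16a10, which carries aromatic amino acids, had a log2 fold change under DSS of -0.27 ± 0.14 averaged over the genotypes (adjusted p = 0.173; limma voom called it at -0.32, adjusted p = 0.0232), and of 0.13 ± 0.17 in DKO against WT averaged over the treatments (adjusted p = 0.752).

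Counted over the members, 2 of 10 were lower under DSS in WT (Slc7a5 and Slc7a1), beside 12.9% of all tested genes called in either direction and 6.59% called lower. In LAO1KO 1 of 10 was lower (Slc6a14), beside 0.196% (0.191% lower), and averaged over the genotypes 2 of 10 (Slc6a14 and Slc7a1), beside 15.9% (9.18% lower). In DKO edgeR called 0 of 10, beside 0.0159%, with 1 member at an unadjusted p under 0.05 and 1 called by DESeq2 and by limma voom, Slc6a14. By genotype the 10 members had a median log2 fold change of -0.10 (WT), -0.06 (LAO1KO) and -0.04 (DKO), beside 0.02 over all genes in each. The WT background rests on single libraries: 2428 genes passed with all libraries, 777 without library B under water, 981 without library C under DSS, and 231 without both. Library C under DSS had the highest mitochondrial share, 44.9%.

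The interactions, which compare DSS responses between genotypes, had 0 of 10 members past the threshold by edgeR. The background was 0% for LAO1KO against WT, 0.0584% for DKO against WT and 0% for DKO against LAO1KO. At an unadjusted p under 0.05 there were 3, 3 and 0 members, and in the first comparisons these were Slc7a5, Slc6a14 and Slc7a1. DESeq2 called 2, 2 and 0 members and limma voom 3, 1 and 0. The background percentages belong to the edgeR calls and not to these further counts.

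**Figure D4:**
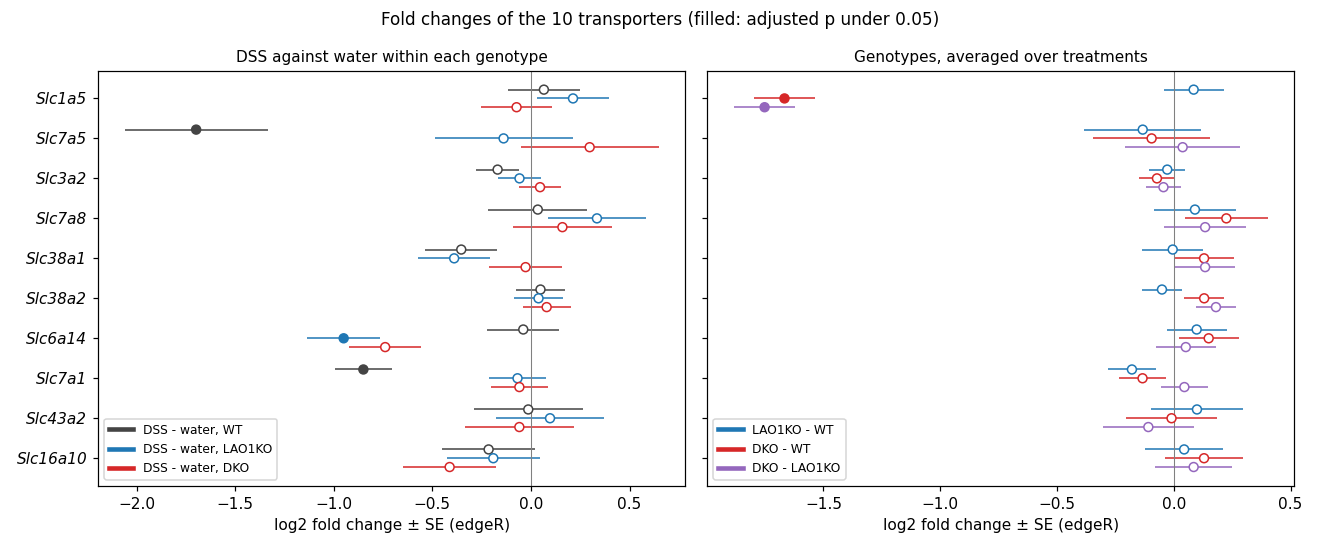
Log2 fold change ± SE (horizontal axes) of the 10 transporters (rows) for DSS against water in each genotype (left) and for the genotype pairs averaged over the treatments (right); filled points have an edgeR adjusted p under 0.05. On the left Slc7a5 and Slc7a1 are filled in WT and Slc6a14 in LAO1KO, and on the right only Slc1a5 is filled, for both comparisons with DKO.

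Ordered by mean CPM per kilobase of exon over the 18 libraries, Slc6a14 (140.1) was followed by Slc1a5 (65.1), Slc38a2 (35.5), Slc3a2 (18.5), Slc38a1 (6.35), Slc7a8 (3.81), Slc7a1 (3.10), Slc43a2 (2.78), Slc7a5 (1.57) and Slc16a10 (1.41). In DKO alone Slc1a5, at 25.9 CPM per kb, stood behind Slc38a2, at 38.1. In WT and LAO1KO together it stood at 84.8, ahead of Slc38a2 at 34.2.

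Of 27 tested among 30 other plasma membrane transporters of amino acids and peptides, 0 rose and 2 fell under DSS in WT, with a list median of -0.34 (log2). The 7.41% that fell is near the 6.59% of all genes called lower. These were Slc1a1, a glutamate and aspartate carrier (-0.73 ± 0.19, adjusted p = 0.0187), and Slc1a4 (ASCT1), the nearest relative of Slc1a5 (-0.96 ± 0.24, adjusted p = 0.0174). Averaged over the genotypes 3 fell, Slc1a1 (-0.55), Slc1a4 (-0.47) and the peptide carrier Slc15a1 (-0.91), and 1 rose, Slc6a15 (0.86), with a list median of -0.05. In all 14.8% were called, beside 15.9% of all genes. Under DSS in LAO1KO and DKO 0 of the 27 were called, beside 0.196 and 0.0159% of all genes, with medians of -0.0027 and 0.0049. In DKO against WT averaged over the treatments edgeR called 0 of the 27, with 2 at an unadjusted p under 0.05 and 0 by DESeq2 and limma voom.

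Slc1a4 was 42.6 to 89.2 CPM in WT under water and 25.2 to 38.9 CPM in WT under DSS, without overlap. Its DKO means were 38.5 ± 4.19 CPM under water and 36.1 ± 6.92 CPM under DSS (SD, n = 3), beside 39.2 ± 9.60 and 30.5 ± 3.50 CPM in LAO1KO.

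Among 28 tested of 30 genes of lysosomal amino acid transport and amino acid sensing by mTORC1, the growth kinase complex, 2 rose and 4 fell under DSS in WT (median 0.02), which is 21.4% beside 12.9% of all genes. Rptor, the scaffold subunit of mTORC1, fell by 0.86 on the log2 scale (adjusted p = 0.00421) and Mtor by 0.42 (adjusted p = 0.0420). Depdc5 (-0.65), a subunit of the GATOR1 complex, and the sestrin gene Sesn3 (-0.86) were the others that fell. The arginine sensor Slc38a9 (0.70 ± 0.21, adjusted p = 0.0350) and Lamtor4, a Ragulator subunit (0.64 ± 0.19, adjusted p = 0.0318), rose. Averaged over the genotypes 0 rose and 4 fell: Rptor (-0.52), Rragc (-0.28), Mlst8 (-0.31) and Slc15a4 (-0.29). These are 14.3% of the list, beside 9.18% of all genes called lower and 15.9% called in either direction. Within LAO1KO and DKO 0 of the 28 were called under DSS, beside 0.196 and 0.0159% of all genes, with medians of -0.07 and -0.04.

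Of the 22 genes of the ATF4 response, which is switched on when amino acids run short, 0 rose and 4 fell under DSS in WT (median -0.27), the mitochondrial folate enzyme genes Mthfd2 (-1.15 ± 0.36, adjusted p = 0.0460) and Shmt2 (-0.66), the kinase gene Eif2ak3 (-0.54) and the proline synthesis gene Aldh18a1 (-0.65). That is 18.2%, beside 6.59% of all genes called lower. Averaged over the genotypes 1 fell, Cebpg (-0.21), or 4.55% beside 9.18% of all genes. Within LAO1KO and DKO 0 of the 22 were called under DSS, beside 0.196 and 0.0159% of all genes, with medians of 0.11 and 0.17. Of the 15 genes of glutamine and glutamate use, 0 rose and 5 fell in WT (median -0.54), Got1, Got2, Ppat, Cad and Aldh4a1, by 0.54 to 0.77 on the log2 scale, which is 33.3%. Averaged over the genotypes 2 of these fell, Got1 (-0.49) and Aldh4a1 (-0.37), or 13.3%. None of the 15 was called under DSS in LAO1KO or DKO, with medians of -0.03 and -0.04. Of the 12 Myc pathway and growth genes, Odc1, the first enzyme of polyamine synthesis, fell in WT (-1.25 ± 0.32, adjusted p = 0.0195), as the 1 member called (8.33%). Odc1 (-0.89) and Ldha (-0.76) fell averaged over the genotypes (16.7%). None of the 12 was called under DSS in LAO1KO or DKO, with medians of -0.21 and -0.04.

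Clock genes, a list chosen with earlier results of these data known, moved with DSS in WT as well. Of 16, 8 rose and 3 fell in WT, and the same counts were found averaged over the genotypes. That is 68.8%, beside 12.9 and 15.9% of all genes. Within LAO1KO 0 rose and 2 fell (12.5%), beside 0.196% of all genes, and within DKO 0 were called, beside 0.0159%. Arntl, the core activator, had a log2 fold change of -2.17 ± 0.19 in WT (adjusted p = 2.42e-05). With it fell its relative Npas2 (-1.38), and among those that rose were Dbp (3.57), Ciart (3.43), Tef (1.79) and Nr1d2 (1.76). The part of the clock in the transporters' DSS changes was not tested. Among the markers, 4 of 9 tested crypt stem and cycling cell genes and 3 of 7 fibroblast genes were lower under DSS in WT, beside 6.59% of all genes. The summed crypt markers were 358 to 447 CPM in WT under water and 277 to 344 CPM under DSS. The fibroblast markers were 735 to 1200.9 and 348 to 775 CPM, which overlapped. Other lists shifted in WT too. Plasma cell markers were lower under DSS (209 to 260 against 145 to 180 CPM). Enteric neuron and glia markers were higher (80.7 to 120 against 171 to 237 CPM). The part of the markers in the lower Slc7a5 and Slc7a1 was not tested. In DKO against WT averaged over the treatments edgeR called 0 of the 119 tested genes of the 6 pathway lists, beside 0.562% of all genes. DESeq2 and limma voom called 0 as well. At an unadjusted p under 0.05 there were 18, without a share of all genes beside them.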

How the data were processed

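Colon mRNA of 18 libraries was counted by the authors, and the deposited table holds raw read counts per gene symbol. The builds GRCm38 and mm10 are listed in the submitters' processing notes, and so are the aligner HISAT2 2.1.0, the read trimmer Trimmomatic 0.38 and StringTie 2.1.3b. Libraries were stranded and read as pairs of 150 bases, per the labels' protocols. How strand, overlapping genes and multiply mapped reads were counted is not given in the sources used here. Slc7a5 lies within the span of the gene model Gm20388 and Slc43a2 overlaps the antisense model Gm45606, so both are uncertain in this respect, as are Il4i1 and its copy Il4i1b.

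The counts were tested with edgeR 4.0.16 in R 4.3.3 (filterByExpr, TMM scaling, robust quasi-likelihood fit to all 18 libraries with 1 mean per group, glmQLFTest). This left 18848 genes, over which p-values were adjusted by Benjamini-Hochberg within each of 16 comparisons, with a threshold of 0.05. Shares of all tested genes printed beside counts of genes are those of edgeR calls at this threshold. Counts at an unadjusted p, or by DESeq2 or limma voom, have no such share beside them. Each SE was computed as the size of the log2 fold change over the root of its F statistic. CPM values are scaled by TMM, and n counts libraries. Lengths per kilobase are those of the union of exons in the GENCODE vM21 basic annotation of GRCm38, used in place of the RefSeq union first planned, and positions come from the same annotation. For ratios within a library, exact permutation tests (2-sided) were used. The test was checked on simulated counts with the same spread for every gene and no outlying libraries. That check does not cover libraries that stand apart, as some do here.

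The depth of 26003174 to 36553193 counts gave every member 44 or more counts in every library. Replicate letters are not stated to mark a pairing, and the main fit used none. Over the 45 pairs of libraries with the same letter, deviations from the group means correlated at -0.30 to 0.32. Their median was 0.027, against -0.024 for pairs with other letters. These correlations cannot decide whether libraries of a letter shared a litter or a day.

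The members and gene lists were chosen with earlier results of these data known. All 10 members are named. Of each list, up to 6 genes past the threshold are named by smallest p, and cell type lists are given as counts and sums. The 500 kb window and the motifs TATAAA and GGGCGG were chosen after the values were seen. Alternatives were other scalings, removal of mitochondrial mRNAs, DESeq2 1.42.0, limma voom (limma 3.58.1) with library weights, no filter, only the groups compared, a replicate block, and each library left out. Leaving out WT library B under water together with WT library C under DSS, and shares from raw counts, were added after seeing the data.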

Additional observations from a re-analysis of the deposited data

How the results depend on the processing

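The lower Slc1a5 in DKO against WT under water, under DSS and averaged passed in all 27 alternatives for each, with averaged log2 fold changes of -1.78 to -1.62. The calls of Slc7a1 in WT under DSS, and of Slc6a14 and Slc7a1 averaged over the genotypes, also passed in all 27. Shares of all genes called by DESeq2 and limma voom are not given beside their counts below, so these counts are not a result about the members. The number of members past the threshold moved as follows, by more than 1.5-fold or to or from 0. With DESeq2 it was 1 for DSS in DKO, 1 for LAO1KO against WT under water, 3 for DKO against WT under water, 2 for the LAO1KO interaction with WT and 2 for the DKO interaction with WT. With limma voom it was 2 for DSS in LAO1KO, 1 in DKO and 4 averaged over the genotypes, 1 for LAO1KO against WT under water and 1 under DSS, 2 for DKO against WT under DSS, 3 for DKO against LAO1KO under DSS, and 3 and 1 for the interactions with WT. With only the groups compared it was 1 for DSS in WT, 0 for DSS in LAO1KO and 0 for DKO against LAO1KO under water; the cause was not tested beyond the fewer libraries in each fit. With each library left out it ranged from 1 to 2 for DSS in WT, 0 to 1 for DSS in LAO1KO and 1 to 2 for DKO against WT under water. Smaller moves are not listed, such as that for DSS averaged without LAO1KO library A under water, where Slc38a1 also passed (edgeR adjusted p = 0.00548).

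Of the Slc1a5 changes that were not called, those for LAO1KO against WT under DSS and for the interaction of DKO with LAO1KO kept their sign in all 27 alternatives, and the others reversed in at least 1. Leaving out each library gave log2 fold changes of -0.083 to 0.18 for DSS in WT, -0.00023 to 0.37 in LAO1KO, -0.16 to 0.077 in DKO and -0.013 to 0.12 averaged. It gave -0.15 to 0.20 for LAO1KO against WT under water, -0.032 to 0.31 for the LAO1KO interaction with WT and -0.24 to 0.014 for the DKO interaction with WT. Without both WT library B under water and WT library C under DSS, Slc1a5 was at -0.053 for DSS in WT, -0.14 for LAO1KO against WT under water and -0.011 averaged.

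A replicate block left the number of members past the threshold as it was in all 16 comparisons (2 for DSS in WT, 1 for DKO against WT averaged), while over all genes it called 2681 in place of 2428 for DSS in WT. Of the libraries, 10 of 18 correlated best with their own letter. Unscaled CPM moved 14 of 60 group means by more than 1 SD. From raw counts in place of values per kilobase, the Slc1a5 share was -27.4 points in DKO against WT. With 3 libraries a group, an exact test of 1 group against another cannot go below 0.1.

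Over all genes, the count for DSS in WT was 3454 with DESeq2, 1083 with only the groups compared, and 777 to 3492 with 1 library left out; for DSS averaged it was 6224 with limma voom and for DKO against WT averaged 211 with DESeq2 and 244 with limma voom.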

Other observations

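Over the 18 libraries, after centring on the group means, the member pairs that varied most alike were Slc43a2 with Slc16a10 (Pearson r = 0.74) and Slc1a5 with Slc38a1 (r = 0.72), and the most opposed were Slc7a8 with Slc7a1 (r = -0.57). These are descriptions over 45 pairs, and the libraries share their scaling.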
